A study of Danio rerio with 8 samples.

Results

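A set of 10 germ plasm and primordial germ cell genes, of the 32520 genes in the table, was followed in whole zebrafish embryos: buc, tdrd6, tdrd7a, ddx4, piwil1, piwil2, nanos3, dnd1, dazl and ca15b. They were picked by symbol, and each symbol stood for a single row. RNA was taken from 4 pools of embryos treated with KT09, an ethanol extract of the stem of Mahonia bealei, at 100 µg/ml, and from 4 control pools kept in E3 medium with 0.5% DMSO. The extract was dissolved in DMSO and diluted in E3 medium, so treated pools received DMSO too, at a level that is not stated for them. Each pool held 75 whole AB strain embryos with their yolk, raised at 25 per well and treated from 2 hpf (hours post fertilization). The embryos were collected at 8 hpf according to the labels and the study's results. The study's discussion and the title of its list of differentially expressed genes name a later hour. The study describes delayed epiboly, the spreading of the cell sheet over the yolk, at this dose, so the stage of the embryos and the treatment cannot be told apart.

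Germ plasm is a mixture of RNA and protein that the zebrafish oocyte gathers in its Balbiani body and leaves to the egg. During cleavage it is taken up by a few cells, which become the primordial germ cells, while copies of these RNAs elsewhere in the embryo are cleared. Its proteins build the granules in which germ cells store and protect RNA, and in which Piwi proteins and their small RNAs (piRNAs) act against transposons. Germ cells are a minor part of a gastrula. Whole-embryo RNA cannot tell apart changes, up or down, in germ cell number, RNA per germ cell and RNA left in other cells.

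The deposited values are group means of read counts divided by the size factor of each library, which puts libraries of unequal depth on a single scale. Since each mean is a sum of 4 whole counts times 4 fixed steps, the counts of the single pools were recovered from it. All 19663 treated means and all 19398 control means up to 400 had exactly 1 solution in whole counts. The pools are called a to d from the deepest to the shallowest, and their letters carry no replicate number. Relative depth was between 0.9802 and 1.16 in treated pools and between 0.820 and 1.14 in control pools. The description of replicate 4 in both groups carries a library name in the style of the other group, whereas its title and treatment field give the group used here. All 8 pools were most like a pool of their own group, with a Pearson r over 14335 genes of 0.946 to 0.9795 within and 0.873 to 0.952 between groups. On the first principal component, which held 52.9% of the variance, no pool lay on the side of the other group, and treated pool a and control pool d lay nearest to it. Levels below are reads divided by the size factor. They are not corrected for gene length, so they are compared between pools and not between genes.

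Of the 10 members, 9 had a higher group mean in treated than in control embryos, and tdrd6 had a lower mean. In 6 members (buc, ca15b, piwil1, ddx4, dnd1 and piwil2) the treated mean was more than 1.5-fold higher, and in 0 it was more than 1.5-fold lower. Among all 15888 genes with a mean of 10 or more, 29.7% passed this fold, 14.1% higher and 15.5% lower. The median log2 ratio of treated over control was 0.84 over the members, against 0.01 over all these genes. In limma on log2 levels, with Benjamini-Hochberg adjustment over 14335 genes, 6 members rose (ddx4, dnd1, piwil1, tdrd7a, ca15b and buc) and 0 fell, against 35.5% of all genes called, 16.6% higher and 19.0% lower. Nothing was adjusted or tested over the list of members as such. Without any 1 pool, 4 to 7 members were called and the count was lowest without treated pool c. Since the pools of replicate 4 cannot be picked out, the fit was also run without 1 treated and 1 control pool in all 16 pairs. These fits called 1 to 7 members, the fewest without treated pool c or d together with control pool a. The share of all genes called also varied between the fits without pools and is given in the last section. The ddx4 call was made in 16 of the 16 fits. All of them used the same choice of ddx4 counts, described below, so they do not test that choice.

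**Figure D1:**
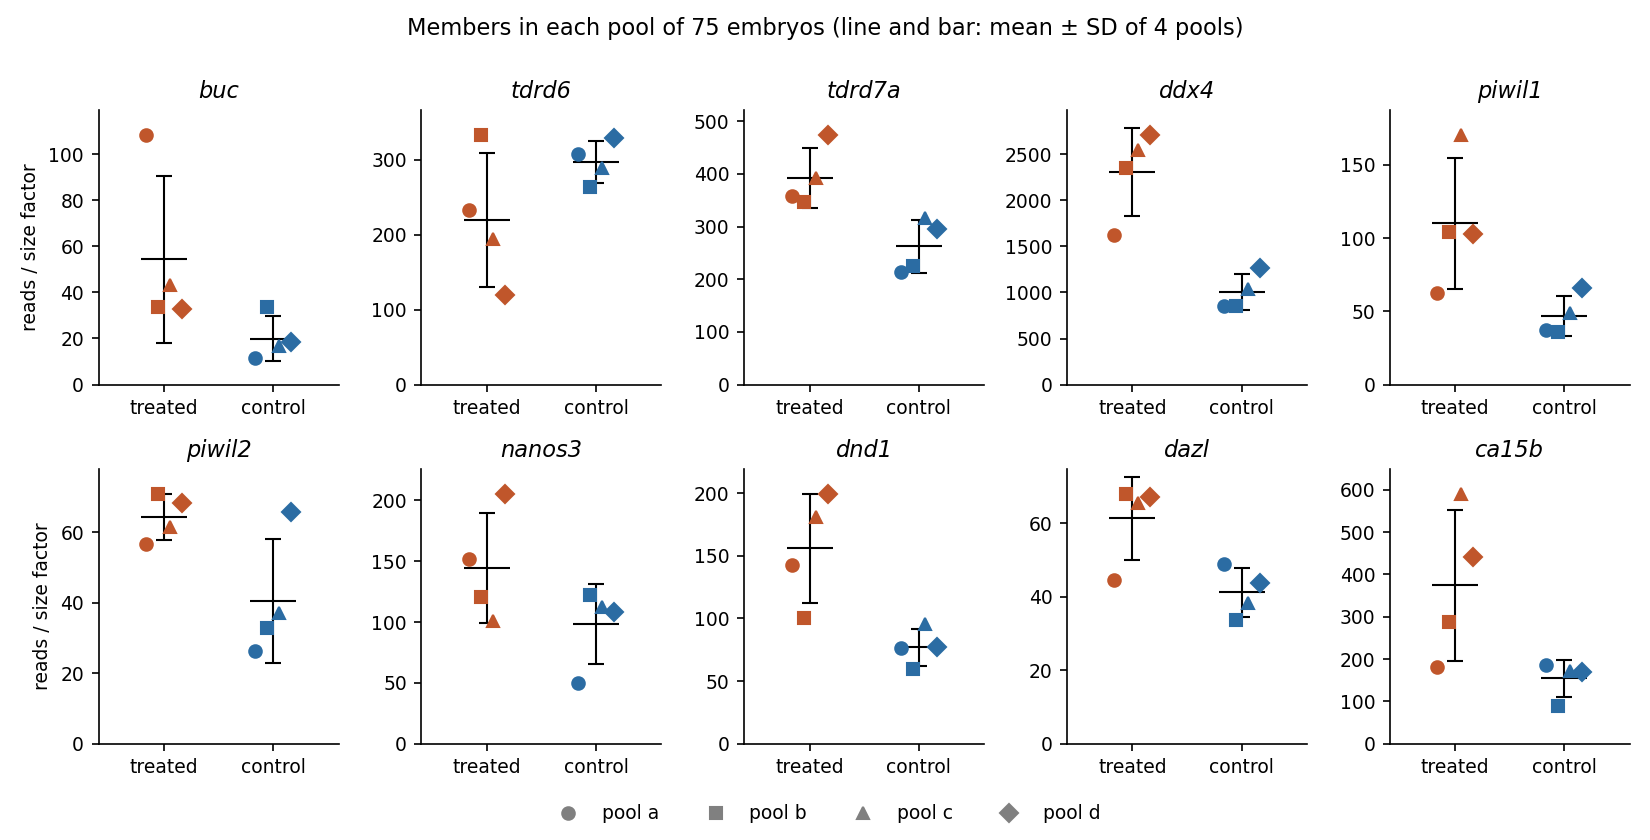
Reads divided by the size factor (linear axes from 0) of the 10 members in the 4 treated pools (left in each panel) and the 4 control pools (right). Marker shapes stand for pools a to d and black lines give the mean ± SD of 4 pools; all 4 treated pools lie above all 4 control pools for tdrd7a, ddx4 and dnd1, and tdrd6 has its lowest levels in treated pools.

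The first members are the scaffold of the germ plasm and its Tudor proteins. The gene buc encodes Bucky ball, the protein that organizes the Balbiani body and can gather germ plasm in zebrafish. It had 108, 33.5, 43.1 and 32.6 reads per size factor in treated pools a to d, against 11.4, 33.7, 16.6 and 18.3 in control pools a to d. Treated pool a stood far above the others, and control pool b was as high as treated pools b and d, so the groups overlapped. The means were 54.4 ± 36.2 in treated and 19.99 ± 9.63 in control pools (SD, n = 4 each), a 2.72-fold ratio with a counting interval of 2.09 to 3.55 (95%, exact binomial). The limma log2 difference was 1.32 ± 0.43 (SE, adjusted p = 0.0364). This call rested on single pools: the adjusted p was 0.0734 without treated pool a, 0.0662 without treated pool c, 0.0969 without control pool a, 0.0803 without control pool c and 0.0606 without control pool d, and the log2 difference without treated pool a was 0.93.

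The gene tdrd6 encodes a protein with several Tudor domains, which bind methylated arginines of Piwi proteins and of Buc. Its levels were 234, 333, 194 and 119 in treated pools, against 308, 264, 289 and 329 in control pools. Control pools were close to each other, whereas treated pools were spread from below all controls to above them. Treated minus control, it differed by -0.52 ± 0.26 on the log2 scale (SE), with a 95% interval of -1.09 to 0.04, which did not pass the test (limma, adjusted p = 0.136). Without treated pool b, the only treated pool above a control pool, it was -0.75 with an adjusted p of 0.0209. That pool was singled out after its values were seen. Of 15 fits with other settings or without 1 pool, 1 called tdrd6, and the limma adjusted p reached 0.310.

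The other Tudor gene, tdrd7a, whose protein shapes germ granules, went the opposite way. Treated pools had 358, 347, 392 and 473 reads per size factor, against 214, 225, 316 and 295 in control pools. All treated pools were above all control pools. The means were 393 ± 57.0 in treated and 262 ± 50.5 in control pools (SD, n = 4 each), a ratio of 1.497, just short of 1.5-fold. The log2 difference was 0.59 ± 0.15 (SE, limma adjusted p = 0.0146), and no single pool decided it. Within a pool, the tdrd6 count was 0.652, 0.959, 0.494 and 0.252 times that of tdrd7a in treated pools, against 1.44, 1.17, 0.915 and 1.12 times in control pools. Only treated pool b overlapped the controls. The ratio was 0.461 times as high in treated as in control pools, with p = 0.0571 in a two-sided exact permutation test and 0.229 after Benjamini-Hochberg adjustment over the 4 pairs compared; with 4 pools against 4 the smallest p possible is 0.0286.

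The next genes act in the granules and in the piRNA pathway. The RNA helicase Vasa, encoded by ddx4, is the classic marker of the germ line. It had 1627, 2356, 2546 and 2707 reads per size factor in treated pools, against 855, 857, 1033 and 1269.9 in control pools. The groups did not overlap, and treated pool a and control pool d were the closest to each other. The treated mean of 2309 has several solutions in whole counts, and the one printed is the only one in which the pools lie within 2-fold of each other, so its spread between treated pools is bounded by that choice. The group means themselves need no such choice: they were 2.30-fold higher in treated than in control embryos, with a counting interval of 2.22 to 2.39 (95%). In limma, ddx4 rose by a log2 difference of 1.19 ± 0.17 (SE, adjusted p = 0.000895), which lay between 1.11 and 1.35 without any 1 pool.

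The zebrafish Piwi gene piwil1 (Ziwi) had 62.7, 104, 170.3 and 103.04 reads per size factor in treated pools, against 37.6, 35.8, 48.6 and 65.9 in control pools. Treated pool a lay just under control pool d, and the other 3 treated pools were above all controls. The means were 110.1 ± 44.6 and 47.0 ± 13.8 in treated and control pools (SD, n = 4 each), and the log2 difference was 1.17 ± 0.30 (SE, limma adjusted p = 0.0141). Its paralog piwil2 (Zili) had 56.7, 70.8, 61.7 and 68.4 in treated pools, against 26.2, 32.7, 37.3 and 65.9 in control pools. The treated pools were close together, and control pool d stood at their level. The log2 difference of piwil2 was 0.73 ± 0.27 (SE) with a 95% interval of 0.14 to 1.33, short of the threshold (limma, adjusted p = 0.0553). Without control pool d, it was 0.99 with a limma adjusted p of 0.00635. Control pool d was the shallowest, with a relative depth (size factor) of 0.820, and was singled out after its values were seen. Of 14 fits with other settings or without 1 pool, 2 called piwil2, and the limma adjusted p reached 0.142. The piwil1 count was 1.11, 1.47, 2.76 and 1.51 times that of piwil2 in treated pools, against 1.43, 1.09, 1.31 and 1.00 times in control pools. This within-pool ratio overlapped between the groups (exact permutation p = 0.143, adjusted over 4 pairs 0.286).

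The RNA-binding regulators form the next group. Nanos3, a repressor of translation needed for germ cells to survive, had RNA levels (nanos3) of 152, 121, 101 and 205 in treated pools, against 49.8, 123, 113 and 109 in control pools. Treated pools a and d were above all controls and control pool a was below all treated pools, while the other pools of both groups overlapped. The log2 difference was 0.58 ± 0.31 (SE) with a 95% interval of -0.10 to 1.26 (limma, adjusted p = 0.164). Dead end, encoded by dnd1, shields germ cell RNAs from microRNAs in zebrafish. The RNA of dnd1 had 143, 100.5, 181 and 199 reads per size factor in treated pools, against 76.0, 59.3, 95.2 and 76.9 in control pools. All treated pools lay above all control pools, treated pool b by a small margin. The means were 156 ± 43.7 in treated and 76.8 ± 14.7 in control pools (SD, n = 4 each), with a log2 difference of 0.98 ± 0.23 (SE, limma adjusted p = 0.00868). Within pools, the nanos3 count was 1.066, 1.2, 0.557 and 1.03 times that of dnd1 in treated pools, against 0.655, 2.07, 1.18 and 1.41 times in control pools. This ratio varied within both groups, which overlapped (exact permutation p = 0.343, adjusted over 4 pairs 0.457).

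The gene dazl encodes a germ cell protein that binds RNA and promotes its translation. Its levels were 44.7, 67.9, 65.6 and 67.3 in treated pools, against 48.9, 33.7, 38.3 and 43.9 in control pools. Treated pools b, c and d were nearly equal and above all controls, and treated pool a was below control pool a. The log2 difference was 0.56 ± 0.21 (SE) with a 95% interval of 0.09 to 1.02 and did not pass the test (limma, adjusted p = 0.0612). Without treated pool a it was 0.70, with an adjusted p of 0.0242, but that pool was singled out after its values were seen. Of 14 fits with other settings or without 1 pool, 1 called dazl, and the limma adjusted p reached 0.149.

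The last member, ca15b, encodes a carbonic anhydrase whose RNA marks primordial germ cells in zebrafish embryos. It had 180.3, 288, 589 and 441 reads per size factor in treated pools, against 185, 90.0, 173 and 169.6 in control pools. Treated pools c and d were far above the rest, and treated pool a was within the range of the controls. The means were 375 ± 179 in treated and 154 ± 43.5 in control pools (SD, n = 4 each), a 2.43-fold ratio. The log2 difference was 1.19 ± 0.35 (SE, limma adjusted p = 0.0239). The adjusted p was 0.0630 without treated pool c, 0.0695 without treated pool d and 0.0640 without control pool b.

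**Figure D2:**
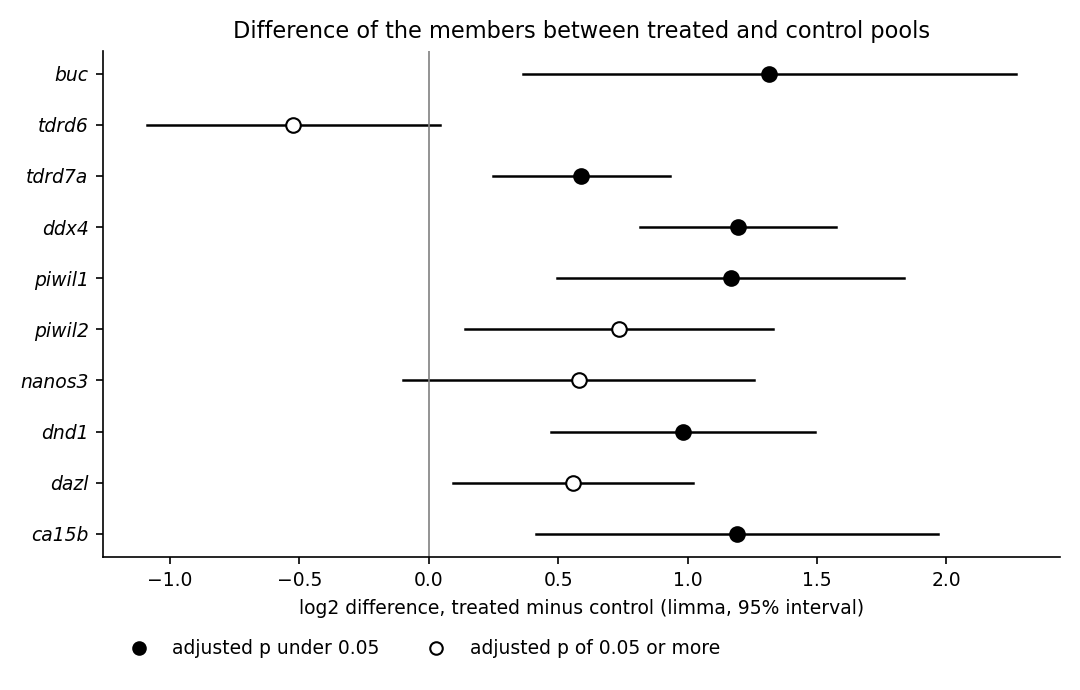
Log2 difference of the 10 members, treated minus control (points), with its 95% interval (lines) from limma on 4 treated and 4 control pools. Filled points have an adjusted p under 0.05 over 14335 genes; 6 members are filled, all to the right of 0, and tdrd6 is the only one to the left.

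Whether the members of a pool moved together was looked at next, as a description. Only 3 members (ddx4, dnd1 and tdrd7a) had all treated pools above all control pools, against 15.9% of 14335 genes. With control pool d set aside, piwil1 and piwil2 joined them, against 20.3% of genes. This followed from the choice of pool, since d was the only control pool that overlapped treated pools in either gene. With treated pool a set aside instead, piwil1, dazl and ca15b would join them. This too followed from the choice of pool, since a was the only treated pool that overlapped control pools in these genes. The share of all genes was not counted, so nothing is read from this number. Treated pool a, the treated pool nearest to the controls over all genes, had the lowest treated level of 5 members (ddx4, piwil1, piwil2, dazl and ca15b). Control pool d, the control pool nearest to the treated ones and the shallowest, had the highest control level of 4 (ddx4, tdrd6, piwil1 and piwil2). The lowest control level was in pool a for 5 members and in pool b for the other 5. Over all genes, these control pools lay farthest from the treated pools on the first principal component (-0.39 for a and -0.42 for b, against -0.31 for c and -0.23 for d). The share of all genes with these lowest or highest pools was not counted, so the orders are not read as particular to the members. The part of depth or stage in these orders was not tested. The pools of buc had another order: treated pool a and control pool b were the highest of their groups, as in 11.9% of all genes. Per ddx4 read, buc had 0.0665, 0.0142, 0.0169 and 0.0121 reads in treated pools, against 0.0133, 0.0394, 0.0160 and 0.0144 in control pools. The same 2 pools were therefore also the highest in buc relative to ddx4, and the groups did not separate (exact permutation p = 0.771, adjusted over 4 pairs 0.771).

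In 9 of the 10 members the pools of a group varied more than in the median gene of like abundance. The within-group SD of log2 levels was 0.63 for ca15b, and 97.5% of 2128 genes with a mean within 0.5 log2 units of it had a smaller SD. For ddx4, whose treated spread is bounded by the choice of solution, it was 0.30, larger than in 97.3% of 1149 genes of like mean. The spread of most genes of that mean may be bounded by the same choice, so this percentage may be too high. The SD was 0.44 for tdrd6, larger than in 91.9% of genes of like mean, and 0.52 for nanos3, larger than in 89.5%. The least variable member for its level was dazl, with an SD of 0.26, larger than in 24.3% of genes of like mean.

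**Figure D3:**
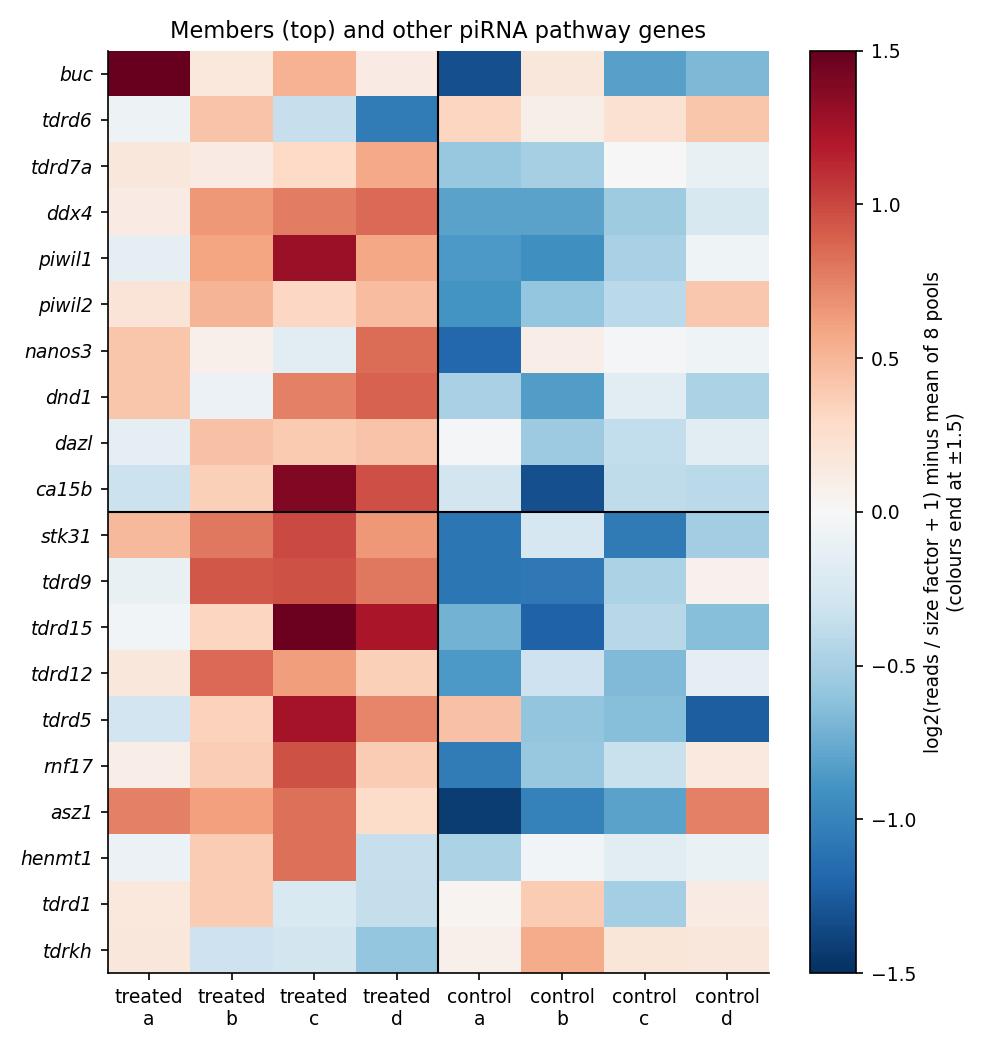
Level of each gene in each pool, as log2 of reads divided by the size factor plus 1, minus the mean of the 8 pools; the 10 members are above the black line and 10 other genes of the piRNA pathway below it, with the 4 treated pools left of the 4 control pools. Treated pools c and d are mostly red, control pools a and b mostly blue, and tdrd6, tdrd1 and tdrkh run against this.

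Other genes of the pathway were read from lists of textbook roles. Of 16 listed genes of the piRNA pathway and germ granules, 14 were found and 11 had a mean of 10 or more, 8 of them more than 1.5-fold higher in treated embryos and 0 lower. Of all genes with such a mean, 14.1% were higher and 15.5% lower by this fold. Of the 10 listed genes that could be split by pool, 5 rose (stk31, tdrd9, tdrd15, tdrd12 and rnf17) and 0 fell in limma. Among all genes tested, 16.6% were called higher and 19.0% lower. Of the 5 that rose, tdrd12 and rnf17 are named only because they passed the test. The median log2 ratio of the 11 was 1.01. The gene stk31, which encodes a Tudor domain protein of germ cells, had 77.3, 95.7, 109.6 and 86.7 reads per size factor in treated pools, against 25.3, 46.0, 25.9 and 37.8 in control pools. The groups were well apart, with a log2 difference of 1.46 ± 0.23 (SE, limma adjusted p = 0.00144). The RNA helicase gene tdrd9 had 302, 625, 637 and 565 in treated pools, against 154, 154, 235 and 343 in control pools, with a log2 difference of 1.28 ± 0.30 (SE, limma adjusted p = 0.00846). As for ddx4, treated pool a was the lowest treated pool and control pool d the highest control pool, and here they overlapped. Of the 16 fits without 1 treated and 1 control pool, 8 did not call tdrd9, at 0.0507 to 0.0718. For tdrd15, which the table lists under a provisional name, the levels were 541, 694, 1539.6 and 1296 in treated pools, against 338, 238, 417 and 357 in control pools (log2 difference 1.49 ± 0.31 SE, limma adjusted p = 0.00523). For asz1, a germ cell protein of mitochondria and piRNA processing, the log2 difference was 1.24 ± 0.46 (SE, limma adjusted p = 0.0572), and 1.69 with an adjusted p of 0.00510 without control pool d. Of the 8 fits without 1 pool, only that without control pool d called asz1. With voom weights asz1 was called too (limma adjusted p = 0.0321). Named after their values were seen, tdrd1 had means of 46.7 in treated and 47.4 in control pools, and tdrkh had 39.6 and 55.7 (limma adjusted p = 0.964 and 0.0976).

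Of 22 listed partners of germ plasm assembly, 18 had a mean of 10 or more and their median log2 ratio was 0.29. Of the 13 that could be split by pool, 6 rose and 1 fell in limma, against 16.6% of all genes called higher and 19.0% lower. Among the 6, dazap2 and pum2 rose by small log2 differences of 0.28 and 0.21 (limma adjusted p = 0.00774 and 0.0169). The gene h1m, which encodes a maternal linker histone kept in zebrafish germ cells, had 970.4, 934, 1372 and 1060.0 reads per size factor in treated pools, against 245, 391, 302 and 525 in control pools. This was a log2 difference of 1.61 ± 0.21 (SE, limma adjusted p = 0.000682). The germ plasm RNA gra had 148, 205, 185 and 136 in treated pools, against 94.3, 65.4, 74.5 and 109.8 in control pools (log2 difference 0.97 ± 0.20 SE, limma adjusted p = 0.00488). A further pair of RNA-binding genes passed the test but not without single pools. The first, rbpms2b, whose protein binds Buc in zebrafish, had means of 61.9 in treated and 33.3 in control pools (limma adjusted p = 0.0349), and 6 of the 8 fits without a pool did not call it, at 0.0507 to 0.0934. The second, cpeb1b, had means of 50.3 and 25.4 in treated and control pools (limma adjusted p = 0.0427), and 6 of these 8 fits did not call it, at 0.0594 to 0.112. The gene that fell was macf1a, the linker of actin and microtubules that places the Balbiani body in zebrafish, with 2076, 1291, 1062 and 1110.0 in treated pools, against 2148, 2607, 2132 and 1901 in control pools (log2 difference -0.71 ± 0.19 SE, limma adjusted p = 0.0161). Treated pool a lay above control pool d, so the groups overlapped. Of the 16 fits without 1 treated and 1 control pool, 9 did not call macf1a, at 0.0590 to 0.119. Means as high as those of macf1a mostly have several solutions in whole counts. As for ddx4, its spread between pools may therefore be bounded by the choice within 2-fold.

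Genes that guide migrating germ cells did not share a direction. Of 7 with a mean of 10 or more, 2 were more than 1.5-fold higher in treated embryos, 0 were lower by that much, and the median log2 ratio was -0.03. Of all genes, 14.1% were higher and 15.5% lower by that fold. In limma, 2 of the 6 listed genes that could be split rose and 2 fell. Among all genes tested, 16.6% were called higher and 19.0% lower, so these counts say little of so short a list. The chemokine receptor gene cxcr4b, which germ cells use to sense Cxcl12 and which other migrating cells also express, had 1432, 1725, 1999 and 2119 in treated pools, against 254, 258, 327 and 477 in control pools. The log2 difference was 2.50 ± 0.20 (SE, limma adjusted p = 9.41e-05), and pool a was again the lowest of the treated and pool d the highest of the control pools. Its paralog cxcr4a rose as well, with means of 1968 and 1182 in treated and control pools (log2 difference 0.73 ± 0.11 SE, limma adjusted p = 0.00109). The scavenger receptor gene ackr3b, which clears Cxcl12 from the tissue, fell, with means of 1278 and 1721 in treated and control pools (log2 difference -0.44 ± 0.10 SE, limma adjusted p = 0.00737). Treated means as high as those of cxcr4b, cxcr4a and ackr3b mostly have several solutions in whole counts. Their spread between pools may therefore be bounded by the choice within 2-fold, as for ddx4. The adhesion gene cdh1 (E-cadherin) was too abundant to split and had authors' means of 4945 in treated and 3903 in control embryos.

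RNAs made in the oocyte that are not confined to germ cells were set beside the members. All 11 with a mean of 10 or more were over 1.5-fold higher in treated embryos, against 14.1% of all genes. This limit was set on the average of both group means. Of the 11, btg4 (means of 23.3 in treated and 6.92 in control pools) and gdf9 (17.1 and 7.25) passed it only through the treated group. The count therefore rests in part on the limit. Under it, mos, bmp15 and slbp2 had means of 4.30, 6.47 and 9.82 in treated and 2.31, 4.53 and 4.34 in control pools. In limma, 9 of the 11 rose, btg4 and gdf9 among them, against 16.6% of all genes. The median log2 ratio of the 11 was 1.24. The Nodal partner gene gdf3 (Vg1) had 585, 578, 888 and 589 in treated pools, against 107, 150.3, 113 and 168 in control pools (log2 difference 2.29 ± 0.19 SE, limma adjusted p = 9.41e-05). The cyclin gene ccna1 had 271, 191, 189.9 and 155 in treated pools, against 16.6, 103.3, 23.8 and 50.0 in control pools, with treated pool a and control pool b again the highest of their groups (log2 difference 2.35 ± 0.47 SE, limma adjusted p = 0.00435). The poly(A)-binding protein gene pabpc1l rose by a log2 difference of 2.04 ± 0.36 (SE, limma adjusted p = 0.00253), and btg4, which encodes an adaptor of deadenylation of maternal RNA, by 1.58 ± 0.41 (SE, limma adjusted p = 0.0147). Higher levels in treated embryos were thus also measured for oocyte-made RNAs outside the germ plasm list, and no difference between the lists was tested.

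Genes of meiosis and of the gonad were near the lower limit, as 3 of the 12 found had a mean of 10 or more. Of these 3, 0 passed the test, against 35.5% of all genes called. The synaptonemal gene sycp1 had 33.5, 39.2, 7.83 and 55.1 in treated pools, against 1.75, 18.4, 13.5 and 29.3 in control pools, with wide overlap (limma adjusted p = 0.238). For sycp3 the means were 51.6 and 75.5 in treated and control pools (limma adjusted p = 0.0545), and sycp3 was called lower with voom weights (0.0499), with pools scaled to the same total (0.0492), without treated pool b (0.0262) and without control pool d (0.0421). For dmrt1 the means were 7.53 and 17.3 in treated and control pools (limma adjusted p = 0.0681), so it reached 10 only through the control group. The summed level of 4 somatic gonad markers (gsdf, amh, foxl2a and cyp19a1a) was 1.91 to 9.18 in treated and 4.88 to 6.12 in control pools, with foxl2a at 0 in both groups. The summed level of the 6 germ line markers (ddx4, nanos3, dnd1, dazl, piwil1 and ca15b) was 2210 to 3722 in treated and 1198 to 1735 in control pools. This sum leaves out tdrd6 and is mostly ddx4, whose means of 2309 and 1004 made up most of the summed means of 3155 in treated and 1421 in control pools.

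Markers of the layers of the gastrula were read as well. Of 16 with a mean of 10 or more, 5 were more than 1.5-fold higher in treated embryos and 1 was lower, and their median log2 ratio was 0.13. With 29.7% of all genes past this fold in either direction, the count says little of these markers as a group. Of the 6 that could be split by pool, 4 rose and 1 fell in limma, against 16.6% of all genes called higher and 19.0% lower. The yolk syncytial layer and mesendoderm gene mixl1 had 265, 501, 948 and 649.9 in treated pools, against 114, 88.9, 138 and 124 in control pools (log2 difference 2.21 ± 0.32 SE, limma adjusted p = 0.00101). Endoderm markers did not share a direction. The gene sox32 had means of 2168 in treated and 1309 in control pools (limma adjusted p = 0.0034). For sox17 the means were 720 and 843 (limma adjusted p = 0.134), and for gata5 1351 and 1693 (limma adjusted p = 0.00846). The ventral gene eve1 had means of 2225 and 1328 in treated and control pools (log2 difference 0.74 ± 0.09 SE, limma adjusted p = 0.000434). The next 2 markers could not be split by pool: the mesoderm gene tbxta had authors' means of 9804 in treated and 5375 in control embryos, and the anterior neural gene otx2b had 386 and 2471. The other neural marker, sox2, went the opposite way, with means of 1894 in treated and 1644 in control pools (log2 difference 0.20 ± 0.07 SE, limma adjusted p = 0.0369); it is named after its values were seen. The 4 keratins of the enveloping layer (krt4, krt5, cyt1 and krt92) summed to 0.967 times as much in treated as in control embryos. The part of these markers in the levels of the germ plasm genes was not tested.

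**Figure D4:**
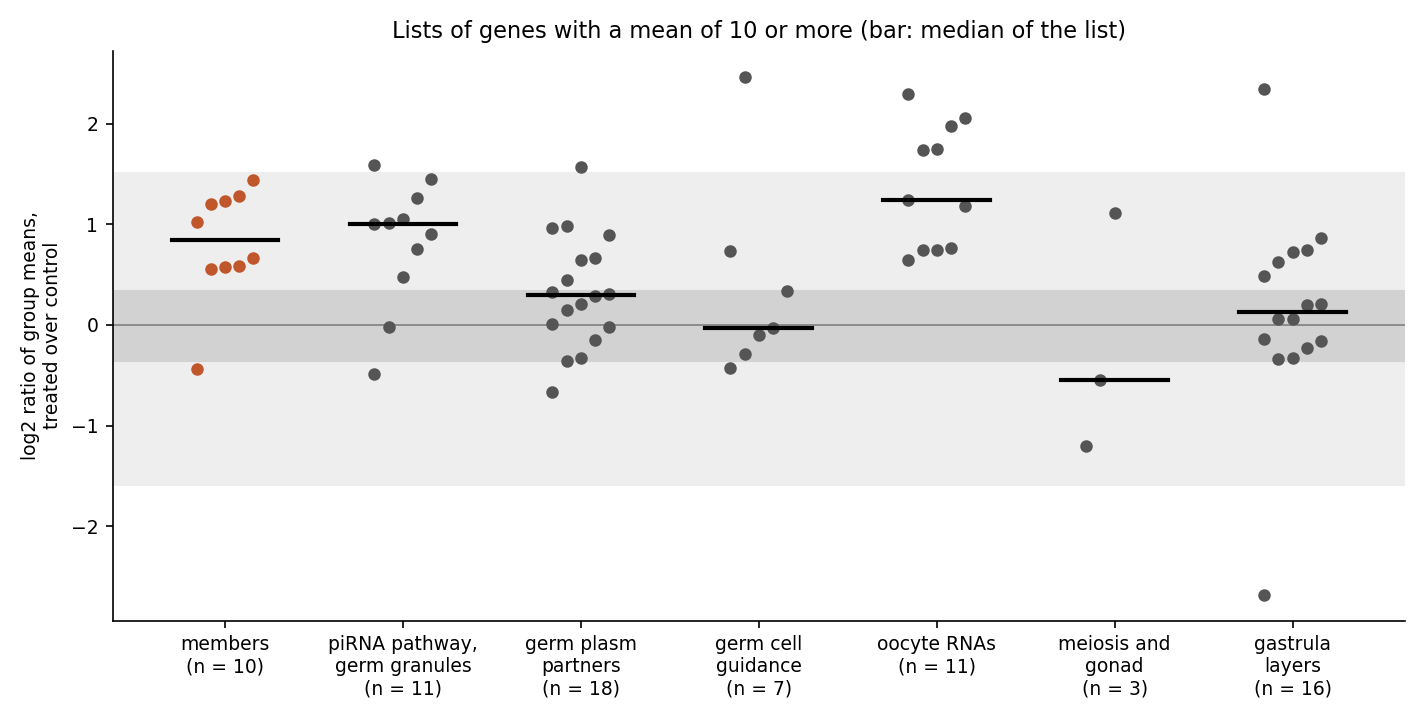
Log2 ratio of the group means, treated over control, of each listed gene with a mean of 10 or more (points) and the median of each list (bars); the dark and light bands hold the middle 50% and 95% of all 15888 such genes. The members have a median of 0.84, the piRNA pathway 1.01 and the oocyte RNAs 1.24, while the germ cell guidance genes have a median of -0.03.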

How the data were processed

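RNA-seq of 4 treated and 4 control pools of 75 whole zebrafish embryos was re-analysed. The authors made stranded mRNA libraries, read them in 1 direction, mapped and counted the reads per gene of an Ensembl annotation of GRCz11 (nf-core rnaseq), and tested treated against control in DESeq2, whose version is not given in the sources used here. The values used are signal values from the authors' deposited table: counts divided by size factors, averaged over the 4 pools of each group. The authors' own columns (mean over both groups, log2 fold change, its standard error, the test statistic, p and adjusted p) were not used.

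The table gives no counts per pool. An edgeR fit, planned only for the case that it did, was not run, also not on the counts recovered from the means. Whole counts per pool were recovered from the 15 printed digits of the means by lattice reduction, tested on simulated data. Means up to 700 had 1 solution each; up to 2500, where several exist, the only one with all pools within 2-fold was kept; 1553 of 15888 genes with a mean of 10 or more were not split. Of means from 1200 to 2500, 1219 of 1287 treated and 1009 of 1270 control means had several solutions. Group means of ddx4, macf1a, pum2, cxcr4a, cxcr4b, ackr3b, eve1, sox32, gata5 and sox2 lie in this range. Of treated means from 700 to 1200, as for h1m, dazap2 and sox17, 247 of 1249 had several. For these genes the spread between pools, and with it SE and p, may be bounded by the choice within 2-fold. The simulated pools had the same spread for every gene, smaller than in variable genes such as macf1a (treated SD of 471 at a mean of 1385). The simulation therefore cannot show that the choice was right for variable genes with high means. The treated mean of tdrd15 also lies between 700 and 1200. Its treated pools were more than 2-fold apart, so their counts were the only solution. Recovery and all tests on it were chosen after seeing the data. Log2 of scaled reads plus 1 was fitted with limma 3.58.1 (trend) in R 4.3.3 over 14335 genes with a mean of 10 or more, with Benjamini-Hochberg adjustment and a threshold of 0.05. Ratios within pools were compared by two-sided exact permutation tests. Counting intervals are 95% exact binomial intervals on about 4 times each mean and cover counting error only. The labels call the pools separate samples, and p-values measure the spread between these pools. Python 3.11.15, numpy 2.4.6, pandas 2.3.3, scipy 1.17.1 and matplotlib 3.10.9 were used.

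Members, lists and pairs were chosen with earlier results of these data known. Of 102 listed symbols, 95 were found by symbol, 2 by gene ID in a name table and 1 by synonym; the other 4 were not analysed here. Named are all members, up to 4 genes of each other list with the largest ratio of the group means and a mean of 10 or more, and those past 1.5-fold against most of their list; cell type markers are named too, and any other gene was chosen after its values were seen. Alternatives were other scalings, pseudocounts, level and fold thresholds, a robust prior, voom weights and leaving out pools.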

Additional observations from a re-analysis of the deposited data

Results flagged for a closer look

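In groups of 4 pools, a pool was marked where its gap to the nearest other pool took up most of the range of its group (Dixon's criterion at 95%, which chance meets in about 1 of 20 groups). Among 62 groups of members and named genes, 6 were marked. For buc, treated pool a was high at 108 reads per size factor. For dazl, treated pool a was low at 44.7. For ca15b, control pool b was low at 90.0. For gdf3, treated pool c was high at 888. For cxcr4a, treated pool a was low at 1576. For asz1, control pool d was high at 23.2. Treated pool a thus accounts for 3 of the 6.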

How the results depend on the processing

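No paired analysis was possible because the recovered pools carry no replicate numbers. The 6 members past 1.5-fold became 3 of the 6 members left with a mean of 100 or more (19.8% of all such genes), and 10 (9 higher and 1 lower) at the lower fold threshold tried, which 52.6% of all genes passed. Without single pools the count was 6 to 9 (29.1 to 34.3% of all genes), the median log2 ratio 0.76 to 1.01 and the limma count 4 to 7 (26.3 to 35.2% of all genes). Without 1 treated and 1 control pool these were 5 to 9 (28.2 to 36.1%), 0.66 to 1.07 and 1 to 7 (15.8 to 35.9%). In those 16 fits ddx4 was called in 16, each time with the same choice of its counts, dnd1 and tdrd7a in 12, piwil1 in 8, ca15b in 7 and buc in 4. Of the other members, piwil2 was called in 4, dazl in 2 and nanos3 in 0, while tdrd6 was called lower in treated pools in 3. Of 17 genes outside the members that the naming rule picked and that passed the test, 10 were called in all 16 fits; the others were tdrd15 (15), ackr3b (12), btg4 (10), tdrd9 (8), macf1a (7), cpeb1b (4) and rbpms2b (4). Voom weights called piwil2 as well (adjusted p = 0.0377). No member reversed its direction under any alternative run. With 4 pools a group and few reads, the differences of scarce members had wide intervals, as for buc (means of 54.4 in treated and 19.99 in control pools, log2 difference 0.36 to 2.27).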
